A study of Mus musculus with 8 samples.

Results

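The genes described here are 10 genes of the lipid droplet and of triglyceride breakdown. They comprise the coat proteins Plin1, Plin2, Plin4 and Cidec, the lipases Pnpla2, Pnpla3, Lipe and Mgll, the lipase cofactor Abhd5 and the secreted lipase Lpl. They were chosen by name: every probe, other than control spots, whose deposited gene name is one of the 10 was taken. That rule found 18 of the 55681 probes on the array, and the 10 genes are among 23054 genes tested. Of the 18 probes, 17 were well above background on all 8 arrays, and 1 of the 4 probes of Mgll was above background on 0 arrays.

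Mature adipocytes had been differentiated from 3T3-L1, an established mouse preadipocyte line, and kept in medium with fetal bovine serum. The groups were chrysotile, crocidolite and amosite, each a type of asbestos fibre given to the cells for 72 h, and physiological saline as the control, with 2 arrays in each group. Fibres were dosed at 10 mg/cm2 per the labels, a unit that could not be checked here. The arrays are called duplicates, without a statement that they came from separate cultures, so every p-value reflects the spread between duplicates, which may be technical only.

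A fat cell keeps its triglyceride in a droplet whose surface is covered by perilipins and CIDE proteins, which control how lipases reach the fat. During lipolysis the lipase ATGL (Pnpla2), switched on by its cofactor ABHD5, takes the first fatty acid from triglyceride, hormone-sensitive lipase (Lipe) acts on the diglyceride and monoglyceride lipase (Mgll) on what remains. Lipoprotein lipase (Lpl) works outside the cell, where it frees fatty acids from circulating lipoproteins for uptake.

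Transcript levels rest on oligonucleotide probes of 60 bases, and 5 genes had more than 1 probe that passed. For 4 of them the probe farthest upstream is shown with that of Lipe, because the upstream probes are compared with the brightest ones later in the results. The Cidec probe lies at chr6:113378116-113378175 on the minus strand, 3486 bases upstream of the brightest Cidec probe. The Mgll probe lies at chr6:88714636-88714695 on the plus strand, 63656 bases upstream of the brightest Mgll probe. The Abhd5 probe lies at chr9:122277200-122277259 on the plus strand, 11657 bases upstream. The Lpl probe lies at chr8:71425050-71425109 on the plus strand, 5217 bases upstream. The only Lipe probe lies at chr7:26165828-26165887 on the minus strand. Positions are on mouse build mm9 as the scanner files give them, distances are genomic and include introns, and the exon or untranslated region of each probe was not analysed here.
Cidec upstream probe: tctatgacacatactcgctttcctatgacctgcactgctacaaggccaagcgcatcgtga
Mgll upstream probe: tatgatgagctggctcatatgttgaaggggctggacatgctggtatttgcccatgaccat
Abhd5 upstream probe: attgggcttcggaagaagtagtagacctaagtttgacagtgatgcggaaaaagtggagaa
Lpl upstream probe: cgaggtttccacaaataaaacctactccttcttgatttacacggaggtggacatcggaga
Lipe probe: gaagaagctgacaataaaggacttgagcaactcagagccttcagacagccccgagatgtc

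Promoter windows of Plin2 and Plin4 are shown as well, because these were the members with an unadjusted p under 0.05 in at least 1 comparison of the fit without a block. Each window runs from 250 bases before to 50 bases after the RefSeq gene start on build GRCm38.p6, at chr4:86670010-86670309 for Plin2 and chr17:56109733-56110032 for Plin4, both on the minus strand. Capitals mark matches on either strand to the 8 motifs described near the end of the results.
Plin2 promoter: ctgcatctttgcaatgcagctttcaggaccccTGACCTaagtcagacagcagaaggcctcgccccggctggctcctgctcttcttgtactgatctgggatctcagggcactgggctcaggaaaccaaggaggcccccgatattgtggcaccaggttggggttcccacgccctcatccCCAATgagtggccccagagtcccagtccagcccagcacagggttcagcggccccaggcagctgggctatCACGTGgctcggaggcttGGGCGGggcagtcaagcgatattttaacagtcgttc
Plin4 promoter: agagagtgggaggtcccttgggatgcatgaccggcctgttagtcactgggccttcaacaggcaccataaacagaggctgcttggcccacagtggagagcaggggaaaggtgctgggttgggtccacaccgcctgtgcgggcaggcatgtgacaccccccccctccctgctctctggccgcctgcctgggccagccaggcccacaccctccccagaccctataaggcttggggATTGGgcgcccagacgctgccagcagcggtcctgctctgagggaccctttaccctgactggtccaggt

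Levels are given as the log2 of the processed intensity relative to the 75th percentile of the same array, so that 0 is that percentile. A level is comparable between arrays for 1 probe and not between probes. The 75th percentile ran from 340.1 to 453.4 intensity units, and 56.2% to 62.8% of probes were well above background on an array. The cells had the markers of their label: all 8 adipocyte markers were above background on all arrays. Their summed linear level, in multiples of the 75th percentile, was 2592 to 2717 with chrysotile, 2483 to 2646 with crocidolite, 2568 to 2672 with amosite and 2503 to 3264 with saline. All 8 preadipocyte markers were also above background on all arrays, with sums of 188 to 351.5 with chrysotile, 182.8 to 315.1 with crocidolite, 215.5 to 336.6 with amosite and 230 to 313.4 with saline, most of it from Dlk1. Their median differences from saline were -0.01 for chrysotile, 0.10 for crocidolite and -0.02 for amosite, with 0 called by limma. In the same order Ly6a gave 0.82, 0.78 and -0.01, and Acta2 0.75, 1.17 and 0.29. Dlk1, Cd34, Gata2 and Gata3 lay below saline with each fibre. Of 8 macrophage markers 5 were above background on all arrays and Lyz2 on 0, and their sums were 65.1 to 75.5 with chrysotile, 61.7 to 69.4 with crocidolite, 62.2 to 66.7 with amosite and 66.6 to 74.1 with saline, most of it from Itgam. Over the 6 macrophage markers tested the median differences from saline were 0.30 for chrysotile, 0.24 for crocidolite and 0.02 for amosite, with 0 called by limma. Cd68 gave 0.60, 0.41 and 0.13, Cd14 0.70, 0.96 and 0.20, and Csf1r -0.45, -0.37 and -0.46 for chrysotile, crocidolite and amosite. Itgam gave 0.01, -0.11 and -0.10 in the same order, Mpeg1 0.96, 0.99 and -0.31, and Ptprc -0.18, 0.06 and 0.29. In bulk RNA of this kind fewer cells of a type and less RNA per cell cannot be told apart.

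**Figure D1:**
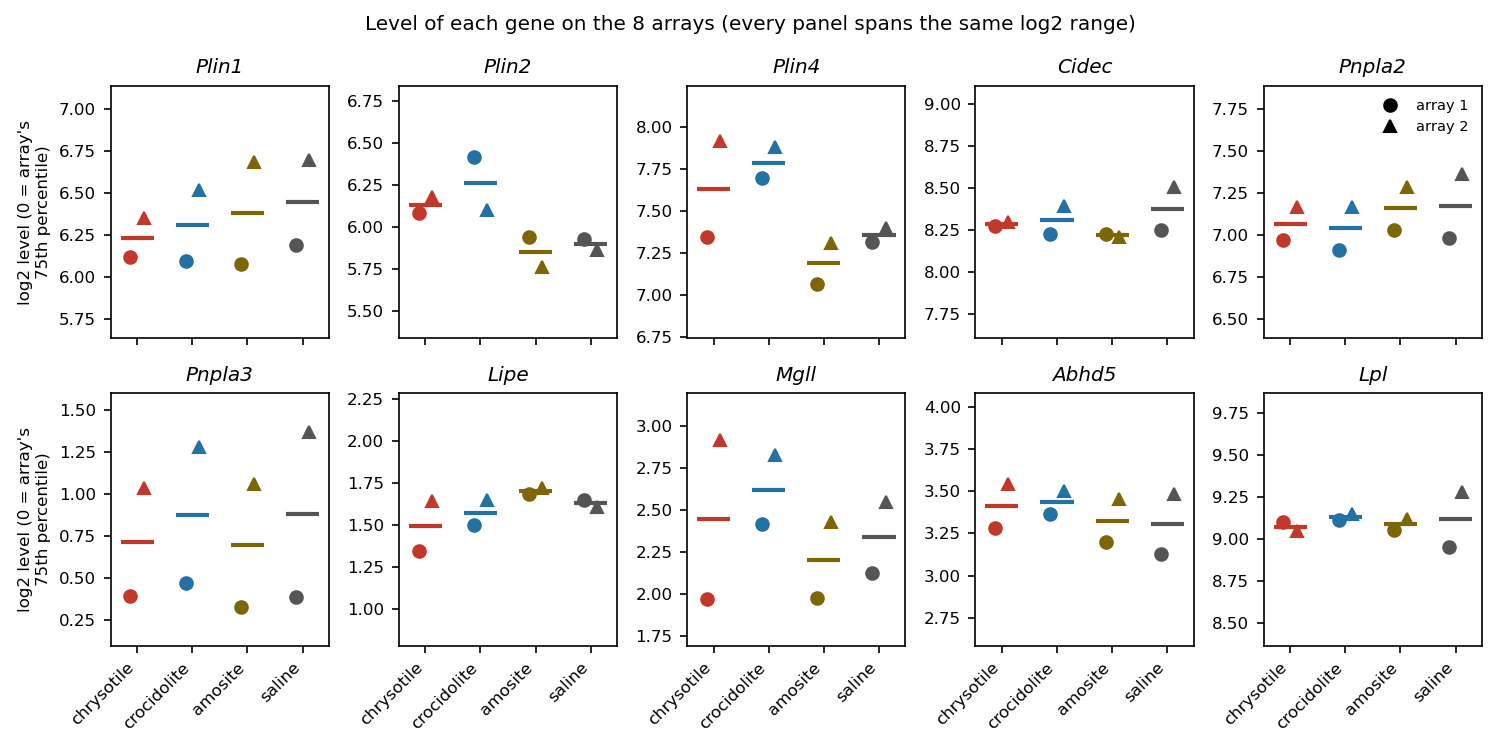
Log2 level of each of the 10 genes on each array (y axis, 0 is the array's 75th percentile, each panel spanning the same range) for chrysotile, crocidolite, amosite and saline (x axis). Circles are array 1, triangles array 2 and lines group means of 2 arrays. Plin2 and Plin4 have both crocidolite arrays above both saline and both amosite arrays, and Pnpla3 has every triangle above every circle.

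The comparison of each fibre with saline asks whether the droplet and lipase transcripts of fat cells differ after exposure to that fibre. No member passed in any of them. limma called 0 of 10 members for chrysotile against saline (0% of all genes called), 0 of 10 for crocidolite (0% of all genes) and 0 of 10 for amosite (0% of all genes), at a Benjamini-Hochberg adjusted p of 0.05 over 23054 genes. At an unadjusted p under 0.05 limma gave 0 members for chrysotile (5.49% of all genes), 1 for crocidolite, Plin2 (7.27% of all genes), and 0 for amosite (2.67% of all genes). The mean of the 3 fibres against saline gave 0 calls (0% of all genes) and 0 members at an unadjusted p under 0.05 (5.62% of all genes).

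The largest member difference from saline was 0.43 on the log2 scale, for Plin4 with crocidolite. With chrysotile 4 members lay above saline (48.8% of all genes) and 6 below, with a median log2 fold change of -0.07 against -0.01 over all genes. With crocidolite 5 lay above saline (46.3% of all genes) and 5 below, with a median of 0.01 against -0.02 over all genes. With amosite 2 lay above saline (44.6% of all genes) and 8 below, with a median of -0.06 against -0.02 over all genes. The 3 comparisons share the same saline arrays, so their values are given side by side and are not independent of each other.

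**Figure D2:**
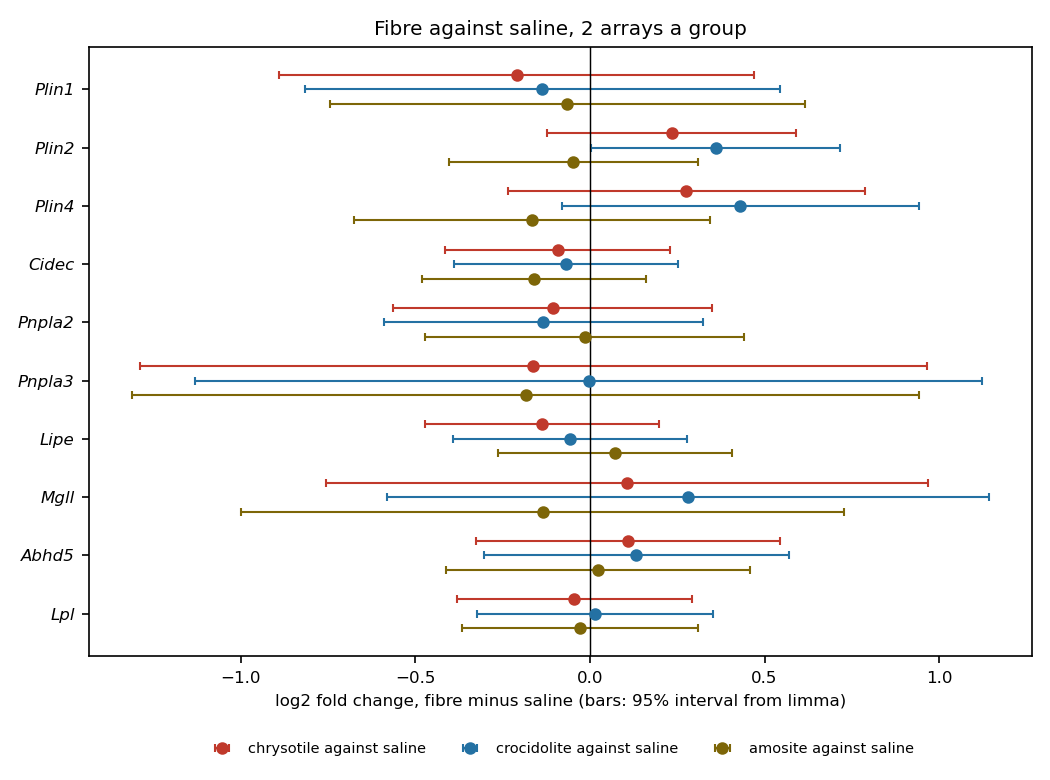
Log2 fold change of each gene, fibre minus saline (x axis), with its 95% interval from the limma fit (bars), for chrysotile, crocidolite and amosite (2 arrays a group). All intervals span 0 except that of Plin2 with crocidolite, which starts at 0.00, and those of Pnpla3 and Mgll are the widest.

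Among the coat proteins, Plin2 and Plin4 had the largest differences. Plin2 encodes the perilipin that coats droplets in most cell types. Its level was 6.08 and 6.18 on the chrysotile arrays, 6.42 and 6.10 on the crocidolite arrays, 5.94 and 5.76 on the amosite arrays, and 5.93 and 5.86 on the saline arrays. Both crocidolite arrays and both chrysotile arrays lay above both saline arrays, while the amosite arrays straddled them. Crocidolite minus saline was 0.36 ± 0.15 (SE, n = 2 arrays each, 1.28-fold, 95% interval 0.00 to 0.72), with an unadjusted p under 0.05 and a limma adjusted p of 0.686. The difference was 0.23 ± 0.15 for chrysotile (adjusted p = 0.911) and -0.05 ± 0.15 for amosite (adjusted p = 1), both by limma. Without crocidolite replicate 1 the crocidolite difference of Plin2 was 0.20.

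Plin4 encodes a perilipin found mainly in fat cells on small, newly formed droplets. It stood at 7.35 and 7.92 on the chrysotile arrays, 7.70 and 7.88 on the crocidolite arrays, 7.07 and 7.31 on the amosite arrays, and 7.32 and 7.40 on the saline arrays. Both crocidolite arrays lay above and both amosite arrays below both saline arrays, and 1 chrysotile array lay between the saline arrays. Crocidolite minus saline was 0.43 ± 0.21 (1.35-fold, 95% interval -0.08 to 0.94), with limma adjusted p = 0.711. For chrysotile it was 0.28 ± 0.21 (-0.23 to 0.79) and for amosite -0.17 ± 0.21 (-0.68 to 0.34). The chrysotile value rested on 1 array, since it was -0.01 without chrysotile replicate 2 and 0.56 without chrysotile replicate 1. Members whose arrays did not overlap with saline numbered 1 higher and 0 lower with chrysotile (14.2% and 15.3% of all genes). With crocidolite they numbered 2 higher and 0 lower (14.6% and 19.9% of all genes), and with amosite 1 higher and 2 lower (8.19% and 12.9% of all genes).

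Plin1, the perilipin of mature fat cells that holds lipolysis in check until hormones phosphorylate it, had all 3 differences within their error. Its level was 6.12 and 6.35 on the chrysotile arrays, 6.10 and 6.52 on the crocidolite arrays, 6.08 and 6.69 on the amosite arrays, and 6.19 and 6.70 on the saline arrays. The 4 groups overlapped, and in each group array 2 was the higher one. Chrysotile minus saline was -0.21 ± 0.28, with a 95% interval of -0.89 to 0.47, so differences anywhere in that range are within the error of this fit. This fit counts the gap between array 1 and array 2 as error. With slide column as a block, described below, the unadjusted limma p of this difference was 0.136, against 0.482 without. Its limma adjusted p with the block was 0.556.

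Cidec, whose protein lets small droplets pass their fat to larger ones, stood at 8.27 and 8.30 on the chrysotile arrays, 8.22 and 8.39 on the crocidolite arrays, 8.23 and 8.21 on the amosite arrays, and 8.25 and 8.51 on the saline arrays. Both amosite arrays lay below both saline arrays, and the 2 saline arrays differed from each other by 0.26. Amosite minus saline was -0.16 ± 0.13 (95% interval -0.48 to 0.16), and the values for chrysotile and crocidolite were -0.09 ± 0.13 and -0.07 ± 0.13.

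Of the lipases, Pnpla2 encodes ATGL, which starts triglyceride breakdown. Its level was 6.97 and 7.16 on the chrysotile arrays, 6.91 and 7.17 on the crocidolite arrays, 7.03 and 7.29 on the amosite arrays, and 6.98 and 7.36 on the saline arrays. All groups overlapped. Chrysotile minus saline was -0.11 ± 0.19, crocidolite minus saline -0.13 ± 0.19 and amosite minus saline -0.01 ± 0.19, and the widest of the 95% intervals on the low side reached -0.59.

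Pnpla3 encodes a related acyl hydrolase of the droplet surface whose gene responds to feeding. It stood at 0.40 and 1.04 on the chrysotile arrays, 0.47 and 1.28 on the crocidolite arrays, 0.33 and 1.06 on the amosite arrays, and 0.39 and 1.37 on the saline arrays. The groups overlapped in full, and the 4 first arrays lay below the 4 second ones. Its differences from saline were -0.16 ± 0.46 for chrysotile, 0.00 ± 0.46 for crocidolite and -0.18 ± 0.46 for amosite, with 95% intervals from -1.31 to 1.12 over the 3, the widest of any member.

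Lipe, the hormone-sensitive lipase that acts mainly on diglyceride, stood at 1.34 and 1.64 on the chrysotile arrays, 1.50 and 1.65 on the crocidolite arrays, 1.68 and 1.72 on the amosite arrays, and 1.65 and 1.61 on the saline arrays. Both amosite arrays lay above both saline arrays, and the other fibres overlapped with saline. The differences were -0.14 ± 0.14 for chrysotile, -0.06 ± 0.14 for crocidolite and 0.07 ± 0.14 for amosite (95% interval -0.26 to 0.41).

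Mgll, the monoglyceride lipase that completes the pathway and also degrades an endocannabinoid, stood at 1.97 and 2.91 on the chrysotile arrays, 2.41 and 2.82 on the crocidolite arrays, 1.97 and 2.43 on the amosite arrays, and 2.13 and 2.55 on the saline arrays. Its arrays of 1 group differed by 0.41 to 0.95, and all fibre groups overlapped with saline. Crocidolite minus saline was 0.28 ± 0.36 (95% interval -0.58 to 1.14), chrysotile minus saline 0.11 ± 0.36 and amosite minus saline -0.14 ± 0.36.

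Abhd5 encodes the cofactor that Plin1 holds at the droplet and releases to ATGL. Its level was 3.28 and 3.54 on the chrysotile arrays, 3.37 and 3.51 on the crocidolite arrays, 3.20 and 3.46 on the amosite arrays, and 3.12 and 3.48 on the saline arrays. Every group overlapped with saline, and crocidolite minus saline, the largest difference, was 0.13 ± 0.18 (95% interval -0.30 to 0.57).

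Lpl had the smallest range of group means, 0.06 on the log2 scale. It stood at 9.10 and 9.05 on the chrysotile arrays, 9.11 and 9.15 on the crocidolite arrays, 9.06 and 9.12 on the amosite arrays, and 8.95 and 9.28 on the saline arrays. All 6 fibre arrays lay between the 2 saline arrays. The differences from saline were -0.04 ± 0.14 for chrysotile, 0.01 ± 0.14 for crocidolite and -0.03 ± 0.14 for amosite, with 95% intervals that reached no farther than -0.38 on the low side and 0.35 on the high side.

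The fibres were also compared with each other. limma called 0 of 10 members for chrysotile against crocidolite (0% of all genes called), 0 for chrysotile against amosite (0%) and 0 for crocidolite against amosite (0%). At an unadjusted p under 0.05 it gave 0 for chrysotile against crocidolite (2.76% of all genes), 0 for chrysotile against amosite (4.33%) and 2 for crocidolite against amosite (5.13%), which were Plin2 and Plin4. Crocidolite minus amosite was 0.60 ± 0.21 for Plin4 (1.51-fold, 95% interval 0.09 to 1.11), the largest difference of any member in any comparison, with limma adjusted p = 0.894. For Plin2 it was 0.41 ± 0.15 (1.33-fold, 95% interval 0.05 to 0.76), with limma adjusted p = 0.894. Without crocidolite replicate 1 this Plin2 difference was 0.25.

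Chrysotile minus amosite was 0.44 ± 0.21 for Plin4 (95% interval -0.07 to 0.95) and 0.28 ± 0.15 for Plin2 (-0.08 to 0.64). The Plin4 value was 0.16 without chrysotile replicate 2 and 0.73 without chrysotile replicate 1. Chrysotile minus crocidolite was -0.15 ± 0.21 for Plin4 and -0.13 ± 0.15 for Plin2. The order of group means was crocidolite, chrysotile, saline and amosite, high to low, for Plin2, Plin4 and Mgll. No pair of neighbours in that order passed the test for Plin2, Plin4 or Mgll. Members whose arrays did not overlap numbered 0 higher and 1 lower for chrysotile against crocidolite (12.8% and 10.6% of all genes), 3 higher and 1 lower for chrysotile against amosite (17.8% and 15.7%), and 2 higher and 1 lower for crocidolite against amosite (17.6% and 20.2%). The 3 higher for chrysotile against amosite were Plin2, Plin4 and Cidec, with Cidec at 0.07 ± 0.13.

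Replicate number and slide column coincided: array 1 of each group lay in column 1 of the slide and array 2 in column 2. A difference between them can lie in the column or in the replicates themselves, and these cannot be told apart. For 6 of 10 members (60% of members) array 2 was higher than array 1 in all 4 groups, as was the case for 17.4% of all genes. These were Plin1, Plin4, Pnpla2, Pnpla3, Mgll and Abhd5. The reverse, array 1 higher in all 4 groups, held for 0 members and 19.5% of all genes. For Pnpla3 the mean difference of array 2 minus array 1 was 0.79 on the log2 scale, against -0.18 for its largest fibre minus saline difference. For Mgll the values were 0.56 and 0.28, and for Plin1 0.44 and -0.21. The fit without a block counts such a gap as error, so the intervals given above for Pnpla3, Mgll and Plin1 include it. For Plin2 the mean difference of array 2 minus array 1 was -0.12, against 0.36 for crocidolite minus saline. Array 2 was also the higher in all 4 groups for the adipocyte markers Retn, Lep, Pparg, Cebpa and Slc2a4 and the preadipocyte marker Gata3. The same held for the macrophage markers Itgam, Cd14 and Mpeg1. Array 2 was the lower in all 4 groups for Dlk1, Pdgfra, Thy1, Gata2 and Acta2. Adipoq, Cfd, Fabp4, Cd34, Ly6a and the other macrophage markers were mixed. The part of such marker differences in the member values was not tested.

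Differences were therefore also taken within each column, with 1 array a group and so with no test. For Plin2 crocidolite minus saline was 0.49 in column 1 and 0.23 in column 2. For Plin4 the crocidolite minus saline values were 0.38 in column 1 and 0.48 in column 2, and the crocidolite minus amosite values were 0.63 and 0.57. For Mgll crocidolite minus saline was 0.29 in column 1 and 0.28 in column 2, while chrysotile minus saline was -0.16 and 0.37. With slide column as a block in the fit, limma called 0 members in each of the 7 comparisons. At an unadjusted p under 0.05 that fit gave 2 members for crocidolite against saline (13.4% of all genes), which were Plin2 and Plin4, 1 for chrysotile against amosite (8.6%), which was Plin4, and 3 for crocidolite against amosite (9.99%), which were Plin2, Plin4 and Mgll. It gave 0 for chrysotile against saline (10.5%), for amosite against saline (4.54%), for the mean of the fibres (10.6%) and for chrysotile against crocidolite (4.52%). The smallest adjusted p of a member with the block was 0.341 by limma, for Plin4 with crocidolite against saline. Both columns gave the same sign for 5 members with chrysotile against saline (50.2% of all genes), 7 with crocidolite (57.1%) and 6 with amosite (44.1%).

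**Figure D3:**
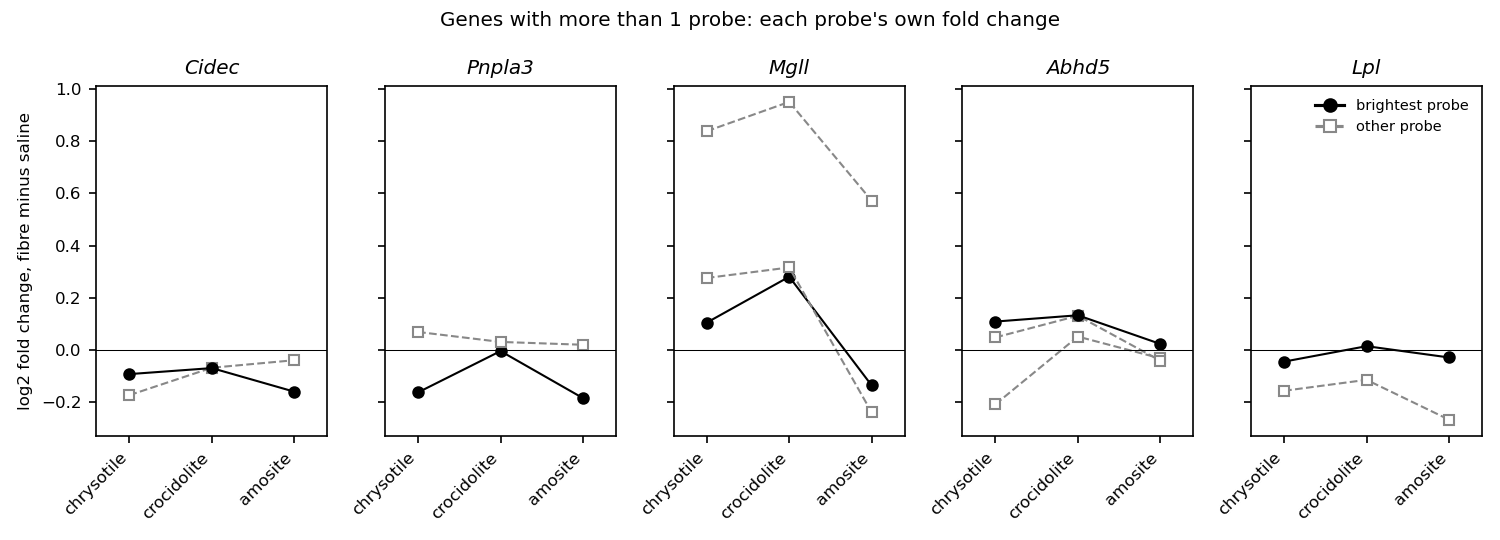
Log2 fold change, fibre minus saline (y axis), for each probe of the 5 genes with more than 1 probe that passed, with chrysotile, crocidolite and amosite along the x axis. Filled circles are the brightest probe, which stands for the gene in the tests, and open squares the other probes. The upstream Mgll probe sits between 0.57 and 0.95, above the other Mgll probes.

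Probes of 1 gene did not always give the same difference. The upstream Mgll probe printed above, annotated to another transcript variant, had levels of -0.39 and 0.49 with chrysotile, -0.14 and 0.46 with crocidolite, -0.54 and 0.11 with amosite, and -1.75 and 0.17 with saline. Its first saline array lay below all other arrays. The fibre minus saline differences were 0.84 ± 0.66 for chrysotile, 0.95 ± 0.66 for crocidolite and 0.57 ± 0.66 for amosite. Another Mgll probe, 2316 bases upstream of the brightest, gave 0.28 ± 0.48 for chrysotile, 0.32 ± 0.48 for crocidolite and -0.24 ± 0.48 for amosite. For Mgll all 3 probes put chrysotile and crocidolite above saline, and they split 1 against 2 for amosite.

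The upstream Lpl probe had levels of 7.07 and 7.02 with chrysotile, 7.09 and 7.08 with crocidolite, 6.97 and 6.90 with amosite, and 7.50 and 6.90 with saline. On this probe the first saline array was the higher one, while on the brightest Lpl probe it was the second. The upstream probe gave -0.16 ± 0.20 for chrysotile, -0.11 ± 0.20 for crocidolite and -0.27 ± 0.20 for amosite. Probes of Pnpla3 differed in sign for each fibre, with differences on the upstream probe of 0.07 ± 0.49 for chrysotile, 0.03 ± 0.49 for crocidolite and 0.02 ± 0.49 for amosite. Probes of Cidec had the same sign for each fibre against saline, the upstream one at -0.17 ± 0.23 for chrysotile, -0.07 ± 0.23 for crocidolite and -0.04 ± 0.23 for amosite. For chrysotile and crocidolite against amosite the Cidec probes differed in sign. Chrysotile minus amosite was 0.07 ± 0.14 on the brightest Cidec probe and -0.13 ± 0.23 on the upstream one. Probes of Abhd5 had the same sign for crocidolite against saline. For chrysotile 1 of 3, downstream of the brightest, went the other way at -0.21 ± 0.21. The upstream Abhd5 probe printed above gave 0.05 ± 0.32 for chrysotile, 0.13 ± 0.32 for crocidolite and -0.04 ± 0.32 for amosite. For amosite 1 Abhd5 probe lay above saline and 2 below.

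The other genes of the pathway were followed in 5 lists of 97 genes, of which 85 were tested. limma called 0 of the 85 in each of the 7 comparisons (0% of all genes called). At an unadjusted p under 0.05 it gave 2 higher and 5 lower with chrysotile against saline (2.82% and 2.67% of all genes), 2 higher and 6 lower with crocidolite (2.86% and 4.42%), and 1 higher and 0 lower with amosite (1.09% and 1.57%). The counts were 1 higher and 0 lower for chrysotile against crocidolite (2.12% and 0.642% of all genes), 3 higher and 5 lower for chrysotile against amosite (2.62% and 1.71%), and 3 higher and 6 lower for crocidolite against amosite (2.48% and 2.65%). Some of these genes were not above background on every array of both groups compared. That held for the 1 gene higher with amosite against saline and for 1 of the 6 lower for crocidolite against amosite. It also held for Aqp3, which is 1 of the 2 genes higher with chrysotile against saline, the 1 higher for chrysotile against crocidolite and 1 of the 3 higher for chrysotile against amosite. Aqp3 passed the filter on dim probes through the chrysotile arrays, so its place in these counts is a description.

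**Figure D4:**
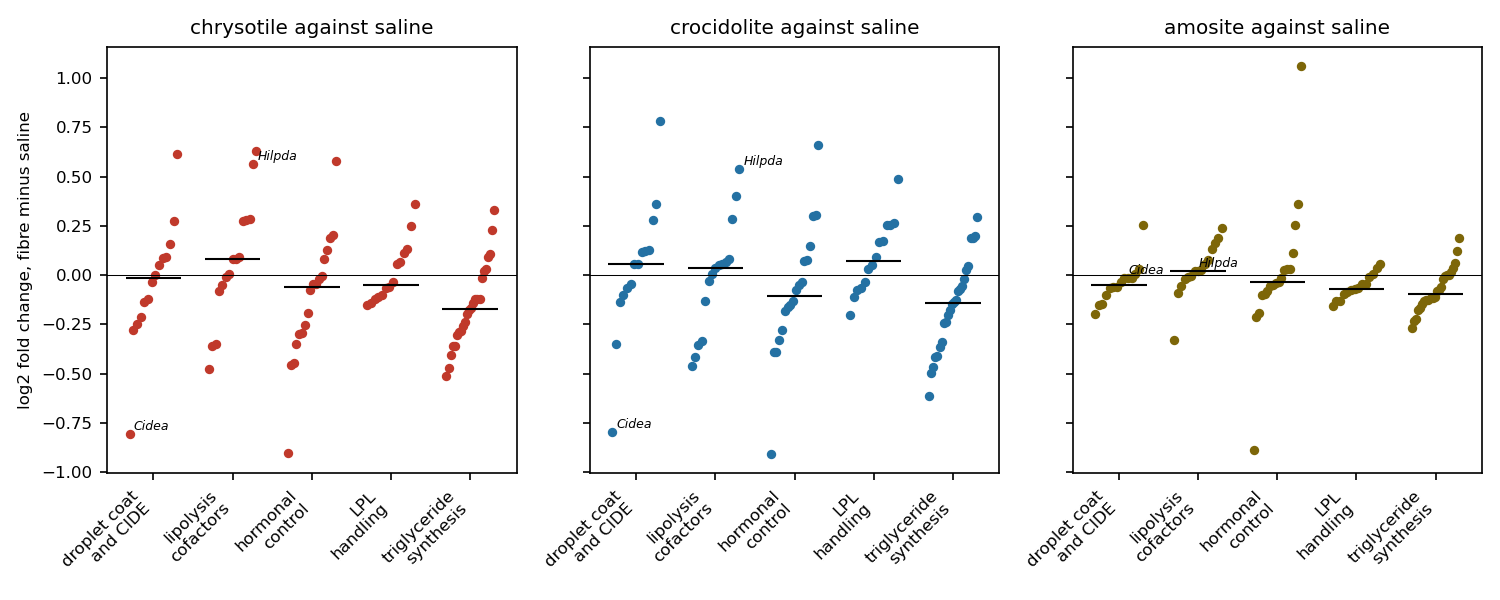
Log2 fold change, fibre minus saline (y axis), of each tested gene in the 5 pathway lists (x axis), with chrysotile, crocidolite and amosite in separate panels. Points are genes sorted within a list, black lines list medians. Cidea lies lowest among the droplet coat genes with chrysotile and crocidolite, at -0.81 and -0.79, and Hilpda lies near the top of the lipolysis cofactors, at 0.56 and 0.54.

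Hilpda, which encodes a small droplet protein that inhibits ATGL, stood at 3.57 and 3.63 on the chrysotile arrays, 3.71 and 3.44 on the crocidolite arrays, 3.20 and 2.91 on the amosite arrays, and 3.08 and 2.99 on the saline arrays. All chrysotile and crocidolite arrays lay above all amosite and saline arrays. The macrophage marker medians given above were also higher with chrysotile and crocidolite than with amosite, though the 6 tested markers did not move together. The part of these markers in the Hilpda, Plin2 and Plin4 values was not tested. Chrysotile minus saline was 0.56 ± 0.15 (limma adjusted p = 0.897), crocidolite minus saline 0.54 ± 0.15 (limma adjusted p = 0.595) and amosite minus saline 0.02 ± 0.15. Among the 15 tested inhibitors, activators and cofactors of lipolysis the medians were 0.08 for chrysotile, 0.04 for crocidolite and 0.02 for amosite. Lipa, the acid lipase of lysosomes, gave 0.28 ± 0.13 for chrysotile, 0.40 ± 0.13 for crocidolite and 0.05 ± 0.13 for amosite, and Abhd6, a monoacylglycerol hydrolase, gave -0.48 ± 0.18 for chrysotile. The carboxylesterase Ces1f gave 0.19 ± 0.13 for amosite, and Aqp3, a glycerol channel, was above background on 2 chrysotile, 1 crocidolite, 0 amosite and 0 saline arrays.

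Cidea, a CIDE protein of droplets that is abundant in brown fat, stood at 2.05 and 1.52 on the chrysotile arrays, 1.80 and 1.78 on the crocidolite arrays, 2.47 and 2.67 on the amosite arrays, and 2.24 and 2.94 on the saline arrays. All chrysotile and crocidolite arrays lay below all amosite and saline arrays. Hilpda and Cidea were named for their small p against saline, so such gaps follow in part from the choice. The share of all genes with such a gap was not counted. Chrysotile minus saline was -0.81 ± 0.27 (limma adjusted p = 0.897), crocidolite minus saline -0.79 ± 0.27 (limma adjusted p = 0.662) and amosite minus saline -0.02 ± 0.27. Cav1, a caveolin that also binds droplets, gave -0.28 ± 0.11 for chrysotile, -0.35 ± 0.11 for crocidolite and -0.15 ± 0.11 for amosite, none called. Hsd17b13, a droplet protein known from liver, gave 0.25 ± 0.19 for amosite. Of 14 coat and CIDE genes 7, 8 and 3 lay above saline with chrysotile, crocidolite and amosite (48.8%, 46.3% and 44.6% of all genes).

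Among 18 tested genes of hormonal control, 5 lay above saline with chrysotile (48.8% of all genes), 6 with crocidolite (46.3%) and 7 with amosite (44.6%). Prkar2b, a regulatory subunit of the cAMP-dependent kinase that phosphorylates Plin1 and Lipe, stood at 5.73 and 5.52 on the chrysotile arrays, 5.67 and 5.69 on the crocidolite arrays, 5.90 and 6.08 on the amosite arrays, and 5.91 and 6.23 on the saline arrays. Chrysotile minus saline was -0.45 ± 0.16 (limma adjusted p = 0.897) and crocidolite minus saline -0.39 ± 0.16 (limma adjusted p = 0.684). Adrb1, an adrenergic receptor, gave -0.30 ± 0.17 for chrysotile, -0.39 ± 0.17 for crocidolite and 0.36 ± 0.17 for amosite.

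Among 14 tested genes of LPL maturation, transport and inhibition the medians were -0.05 for chrysotile, 0.07 for crocidolite and -0.07 for amosite. Angptl4, which inactivates LPL, stood at 7.13 and 7.88 on the chrysotile arrays, 7.49 and 7.76 on the crocidolite arrays, 7.06 and 7.22 on the amosite arrays, and 6.85 and 7.42 on the saline arrays. The crocidolite arrays lay above the saline arrays and the others overlapped, with crocidolite minus saline at 0.49 ± 0.30 (limma adjusted p = 0.763). Sdc1, a heparan sulfate proteoglycan that can bind LPL, gave 0.25 ± 0.13 for both chrysotile and crocidolite, and Apoc2, the activator of LPL, gave 0.25 ± 0.15 for crocidolite. Hspg2, a secreted heparan sulfate proteoglycan, gave -0.16 ± 0.12 for amosite. The LPL chaperone Lmf1 gave -0.14 ± 0.13, -0.11 ± 0.13 and -0.13 ± 0.13 for chrysotile, crocidolite and amosite.

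Of 24 tested genes of triglyceride synthesis, 6 lay above saline with chrysotile (48.8% of all genes), 6 with crocidolite (46.3%) and 5 with amosite (44.6%). Below saline lay 18, 18 and 19. The list medians were -0.17, -0.14 and -0.10, while the medians over all genes lay between -0.02 and -0.01. The 3 counts share the same 2 saline arrays. Over all genes the SD of the difference between the arrays of a group was 0.54 for saline and 0.37 to 0.43 for the fibres. limma called 0 of these 24 in each comparison. Gpat4, which adds the first acyl chain to glycerol phosphate, stood at 4.62 and 4.19 on the chrysotile arrays, 4.38 and 4.38 on the crocidolite arrays, 4.83 and 4.89 on the amosite arrays, and 4.83 and 4.92 on the saline arrays. Chrysotile minus saline was -0.47 ± 0.16 (limma adjusted p = 0.897) and crocidolite minus saline -0.50 ± 0.16 (limma adjusted p = 0.628). Slc27a1, a fatty acid transport protein, gave -0.51 ± 0.23 for chrysotile and -0.61 ± 0.23 for crocidolite. With amosite Mogat1, an enzyme that acylates monoglyceride, gave -0.27 ± 0.12 and Agpat2, which adds the next acyl chain after Gpat4, -0.23 ± 0.17. The adipocyte marker genes had medians of -0.15, -0.21 and -0.11 for chrysotile, crocidolite and amosite, and their part in these values was not tested.

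Genes whose pattern over the 8 arrays was most like that of the members were listed as a description, among 13905 genes above background on all arrays. Among those closest to the mean of the 10 members were Krt36 (Pearson r = 0.991), Rasa3 (0.99), Ift122 (0.986) and Rad50 (0.985). Closest to Plin4 were Bcl6 (r = 0.994), Cpt1a (0.988) and Lpgat1 (0.984), and closest to Mgll were Scarb1 (0.995), Glcci1 (0.993) and Rin2 (0.985). Closest to Plin2 were Snx16 (0.985), B4galt5 (0.978) and Ufl1 (0.977). These r values are over 8 arrays that share slide columns. The member mean, relative to each gene's own average, was -0.17 and 0.16 on the chrysotile arrays, -0.03 and 0.19 on the crocidolite arrays, -0.20 and 0.05 on the amosite arrays, and -0.16 and 0.16 on the saline arrays, with array 2 the higher in each group.

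RefSeq promoter windows of GRCm38.p6 were found for 9 of the 10 members, 12 windows in all, and not for Lpl. Motifs were searched on both strands in these and in 32851 windows of the same length. The nuclear receptor half-site AGGTCA was in 2 of 12 member windows (Plin2 and Abhd5) and 16.3% of all windows, while the PPAR/RXR element was in 0 of 12 and 0.0396%. With an exact match so rare, 12 windows were too few to show whether the members have the element. The E-box CACGTG was in 3 of 12 (Plin2, Lipe and Mgll) and 7.15%. The C/EBP element, TTGCNNAA, was in 2 of 12 (Plin1 and Cidec) and 10.8%. The cAMP response half-site TGACG was in 3 of 12 (Pnpla3, Mgll and Abhd5) and 20.8%.

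The CCAAT box, CCAAT, was in 3 of 12 member windows (Plin2, Plin4 and Pnpla3) and 37.4% of all windows, the GC box GGGCGG in 7 of 12 and 35.7%, and TATAAA in 0 of 12 and 13.6%. The bases G and C made up 55.7% to 72.3% of each member window, against a median of 52.7% over all windows. The part of this base content in the motif counts was not tested. In the Plin2 window printed above AGGTCA matched at position -218 (on the opposite strand), CCAAT at -73, CACGTG at -4 and GGGCGG at 15, counted from the gene start, and in that of Plin4 CCAAT matched at -18 on the opposite strand. The only motif these 2 windows shared was CCAAT. The PPAR/RXR element was searched as the half-site repeated in the same orientation with 1 base between, and could overlap with single half-sites. A match describes the letters of a window and is not a measured binding site.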

How the data were processed

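Members and gene lists were chosen with earlier results of these data known. Cy3-labelled RNA was hybridised to Agilent one-colour arrays, read with Agilent Feature Extraction 10.7 per the labels and per the submitters' processing notes (10.7.1.1 per the file headers). Each deposited value is the linear intensity of 1 spot, background-subtracted by the scanner software per the file headers, without scaling between arrays. The deposited value table held the same intensities, with a largest difference of 0.

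Spots with outlier flags (99 to 183 an array) were left out, 9 probes missing on an array were dropped, and log2 intensity was centred on the array's 75th percentile of the deposited signal. A probe passed if well above background on both arrays of at least 1 group (33044 probes). The brightest passing probe stood for each gene (23054 genes, 15139 with a RefSeq symbol). Symbols of 26762 probes were matched through transcript identifiers.

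A single limma model of the 4 groups gave all 7 comparisons (lmFit and eBayes, with 4 residual and 2.22 prior degrees of freedom, two-sided, Benjamini-Hochberg adjusted p) in R 4.3.3 with limma 3.58.1. The fit was tested on simulated data. The arrays lay on 1 slide with 1 scan date, group following slide row, so row and group cannot be told apart. The number of arrays limits the precision. Besides the members, the pathway genes named were the 2 with the smallest p in each list for each fibre against saline, some with values for the other fibres, and 2 genes chosen by rule are not reported here. Alternatives were another background correction, normalization, filter, probe choice, prior and set of arrays.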

Additional observations from a re-analysis of the deposited data

How the results depend on the processing

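Under 19 alternatives and an added fit of single probes, 1369 values of the 10 genes were recomputed. Of these, 49 came from the added fit, which is not among the 19. None passed the adjusted threshold, the smallest adjusted p being 0.341, and limma called 0 members in all 7 comparisons under each alternative. Of the 1369 values, 1291 moved by no more than the standard error of the reported value and 78 by more: 60 on leaving out 1 array, 6 with median centring, 1 with quantile normalization and 11 on another probe of the gene, in a fit of single probes chosen after seeing the data. The sign differed in 131 of the 1369. Many values could not move, so 1291 does not measure robustness. The block, the other prior, the fit of only the groups compared and the deposited value table keep the group means. The changes of filter kept the same member probes. Leaving out 1 array does not alter a difference between other groups. Deviations from group means correlated at 0.25 to 0.46 between arrays of the same number in all 6 group pairs, and the numbers coincide with slide columns. With the replicate block the members called were 0 in each comparison, and the smallest adjusted p was 0.341 (Plin4, crocidolite against saline). The block changed no call. Plin2 with crocidolite against saline ranged from 0.20 to 0.54 and Plin4 from 0.34 to 0.61, both highest with median centring. That centring moved the median of all genes to 0.16 for crocidolite against saline, -0.13 for chrysotile against crocidolite and 0.11 for crocidolite against amosite, and the share of genes above saline with crocidolite to 74.9%, against 46.3%. Over all genes the count of calls was 0, but without saline replicate 2 it was 67 for chrysotile, 51 for crocidolite, 58 for amosite and 187 for the mean of the fibres, and with quantile normalization 3, 2, 2 and 2. The cause was not tested. A block by slide was not run because there was 1 slide, and a fit of only the groups compared does not apply to the mean of the fibres.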
